A study of Homo sapiens with 6 samples.

Results

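The genes described here are TNFSF10, which encodes the death ligand TRAIL, its death receptors TNFRSF10A and TNFRSF10B, the apoptosis factor XAF1, and the caspases CASP1, CASP4, CASP8 and CASP10. They were chosen by symbol, and each of the 8 had 1 row among the 29845 genes of the count table. The RNA came from A549, an established cell line from a human lung carcinoma with an epithelial character. The control cells were transfected with the empty pIRES-hrGFP-1a vector, and the TFAM-OE cells with the same vector carrying FLAG-tagged TFAM, a mitochondrial DNA packaging and transcription factor. Both groups therefore received a plasmid and the same lipid reagent, and no untransfected cells were compared. Each group had 3 libraries of polyadenylated RNA, and the comparison asks which of these genes differed between them. The transfection is transient, so cells that took up no plasmid may be part of every culture.

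TRAIL is a ligand of the tumour necrosis factor family that binds TNFRSF10A and TNFRSF10B, whose intracellular death domains recruit the adaptor FADD and the initiator caspases CASP8 and CASP10. This assembly, the death-inducing signalling complex, is restrained by CFLAR, and the decoy receptors TNFRSF10C and TNFRSF10D bind TRAIL without passing on a full death signal. XAF1 is an antagonist of XIAP, an inhibitor of caspases. CASP1 and CASP4 are inflammatory caspases, which cut gasdermin D and, for CASP1, activate the cytokine interleukin-1 beta. TNFSF10, XAF1, CASP1 and CASP4 are known as interferon-stimulated genes in many cell types, lung epithelium included.

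Promoter windows were searched because interferon acts on such genes through short DNA elements, and the windows below are the ones with a match. The RefSeq table (GRCh38.p14) held windows of 300 bases around the start site for TNFSF10 (1 window), XAF1 (2), CASP4 (1) and CASP8 (3). CASP1 and CASP10 had no entry. The core of the interferon-stimulated response element was searched as AAANNGAAA, which reads TTTCNNTTT on the other strand, and the element bound by STAT factors as TTCNNNGAA. Both strands were searched. The first was found in 10.48% and the second in 7.66% of the 35116 windows searched. Each sequence is written from 5′ to 3′ on the strand of its gene, with the matched bases in capitals.
TNFSF10, response element core, chr3:172523602-172523625, minus strand: ggagcttcTTTCAGTTTccctcct
XAF1, response element core, chr17:6756007-6756030, plus strand: cggaaaacTTTCAGTTTtgtttcc
CASP4, response element core, chr11:104968733-104968756, minus strand: tttgtcatTTTCATTTTtttcccc
CASP4, response element core, chr11:104968570-104968593, minus strand: tagtttacTTTCATTTTtgactct
CASP8, response element core, chr2:201233452-201233475, plus strand: gtttttggTTTCTGTTTcaccttg
CASP8, response element core, chr2:201257797-201257820, plus strand: atcaaggcAAAGGGAAActtccta
CASP8, STAT element, chr2:201233255-201233278, plus strand: aattatttTTCCAAGAAgaaaata
TNFSF10 and XAF1 held the same 9 matched bases. In TNFSF10 they begin 187 bases before the start site of its window. In XAF1 they begin 31 bases before the start site of 1 of its 2 windows. Both matches of CASP4 had the same letters as each other, and the nearer one began 11 bases before the start site of its window. These RefSeq start sites can differ from the gene ends given below. The matches of XAF1 and CASP4 lie inside those gene spans. A match describes these letters and does not show binding.

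The counts summed to between 26650854 and 37321956 reads per library; the number of genes with a read ran from 22935 to 24770. In a principal component analysis of log2 CPM (read counts scaled to library size), the first component held 50.7% of the variance and separated the groups. The second held 24.8% and set TFAM-OE replicates 1 and 3 apart from each other, at -29.43 and 38.78, with the other 4 libraries between -11.75 and 3.52. The values of the 3 called genes and of CASP4 are therefore also given without each of these libraries. For TFAM itself, 2555, 1878 and 2663 reads were counted in the control libraries, against 2291, 2808 and 2492 in the TFAM-OE libraries. Its log2 fold change was 0.085 (SE 0.096, edgeR adjusted p = 0.623), so its reads did not separate the groups, although a plasmid carrying its coding sequence could add to them. The study's own check of the overexpression was a western blot for the FLAG tag on the protein, which was not analysed here. The second group is named below as the libraries labelled TFAM-OE. The 10 epithelial markers of A549 summed to between 11200 and 11700 CPM in the control and between 10900 and 13200 CPM in the libraries labelled TFAM-OE, and 1 of them, ALDH3A1, was higher past the adjusted p. CDKN2A, which is deleted in A549 cells, reached at most 0.0273 CPM. Of 10 leukocyte markers, 6 were listed, and their sum ranged from 0.336 to 0.506 CPM in the control and from 0.165 to 0.3 CPM in the other group. The 4 fibroblast markers listed of 5 summed to between 4.82 and 5.26 CPM against 2.79 to 4.93 CPM, and the 4 endothelial markers to between 0.164 and 0.506 CPM against 0.157 to 0.333 CPM.

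XAF1, TNFSF10 and CASP1 had lower levels in the libraries labelled TFAM-OE, by 12.0-fold, 3.22-fold and 3.16-fold, while the receptors, CASP4, CASP8 and CASP10 did not pass the adjusted p. All 8 genes were among the 16555 genes that passed the filter on low counts and were tested with edgeR. A gene was called at an adjusted p below 0.05 together with a change of 2-fold or more in either direction. By this rule 3 of the 8 were called lower, beside 342 of all genes tested (2.07%), and 0 were called higher, beside 74 (0.447%). The same 3 of the 8 were the ones past the adjusted p alone, which 796 genes (4.81%) passed as lower and 576 (3.48%) as higher. In 6 of the 8, every library labelled TFAM-OE lay below every control library, as it did for 2623 of the genes tested (15.8%), and in 0 of the 8 above, as for 2620 (15.8%). The median log2 fold change of the 8 was -0.43, beside -0.008 over all genes tested. In these bulk cultures, fewer expressing cells and less RNA per cell cannot be told apart.

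**Figure D1:**
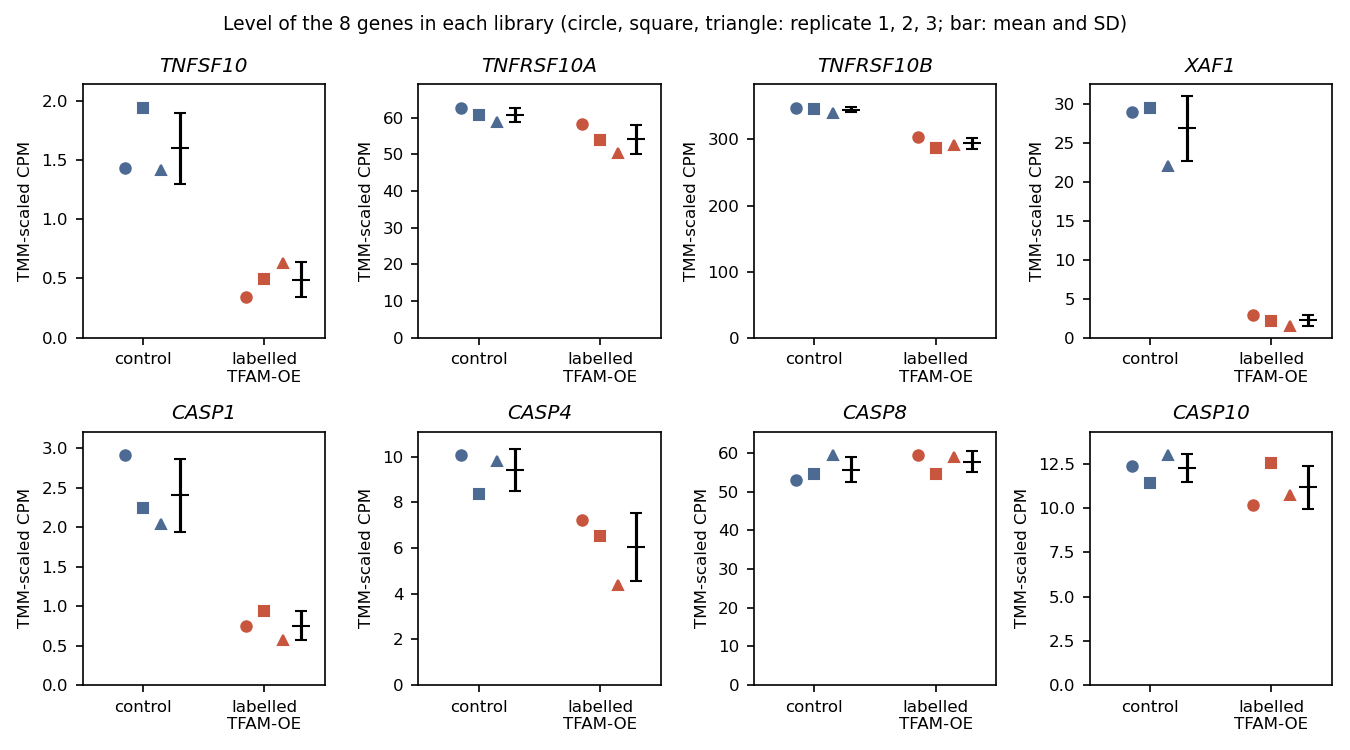
TMM-scaled CPM of each of the 8 genes (vertical axes from 0) in the 3 control libraries (blue) and the 3 labelled TFAM-OE (red), with circle, square and triangle for replicates 1, 2 and 3 and a bar for the mean and SD. The groups stand apart in 6 panels, most widely for XAF1 (22.1 to 29.6 CPM against 1.53 to 2.98 CPM), and overlap for CASP8 and CASP10.

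**Figure D2:**
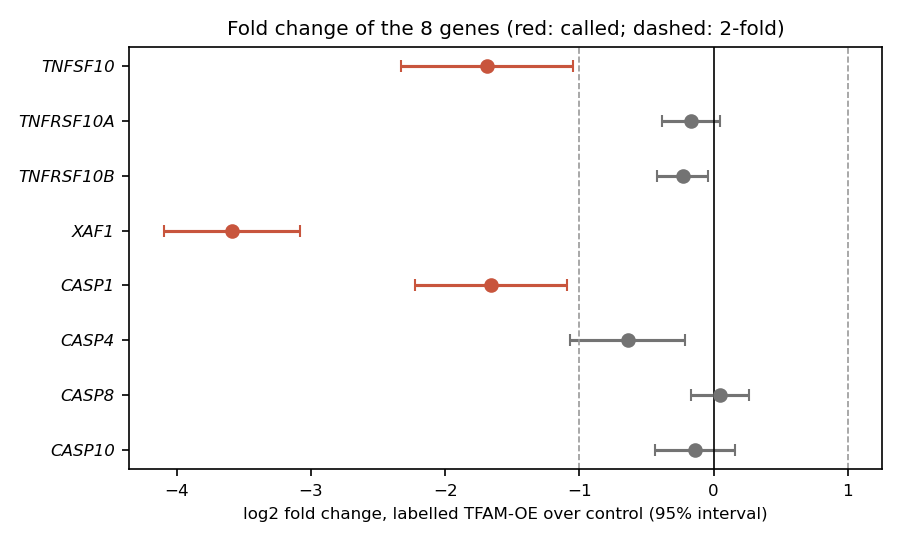
Log2 fold change of each of the 8 genes, labelled TFAM-OE over control, with its 95% interval from the edgeR fit; red marks called genes and the dashed lines a 2-fold change. The intervals of XAF1, TNFSF10 and CASP1 lie below a 2-fold decrease, and those of TNFRSF10A, CASP8 and CASP10 include 0.

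TNFSF10 (chromosome 3, 172505508 to 172523475, minus strand, GRCh38) is the only TRAIL gene and was rare in these cells. The control libraries held 48, 52 and 52 of its reads, and those labelled TFAM-OE held 11, 18 and 19. In TMM-scaled CPM these were 1.43, 1.94 and 1.42 against 0.345, 0.495 and 0.633. Every control library was more than 2-fold above every library labelled TFAM-OE, although control replicate 2 stood above the other control libraries. The means were 1.596 ± 0.299 and 0.491 ± 0.144 CPM (SD, n = 3), and TNFSF10 fell by 1.69 on the log2 scale (SE 0.288, edgeR adjusted p = 0.00855). This is a 3.22-fold decrease, with a 95% interval of 2.07 to 5.03. Without control replicate 2, the log2 fold change was -1.53 and the adjusted p 0.0563, so the call was lost. It was -1.49 without TFAM-OE replicate 1 (adjusted p = 0.00897) and -1.89 without TFAM-OE replicate 3 (adjusted p = 0.00294). The edgeR adjusted p was nearer to 0.05 without TFAM-OE replicate 2 (0.0468) and without control replicate 1 (0.0362). With replicate numbers as a block it was 0.0405. The log2 fold changes in these fits were -1.70, -1.75 and -1.70. With 1 FPKM added before logs were taken, the log2 fold change was -0.48, since the gene's own level was below 1 FPKM in every library.

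The TRAIL receptor genes lie side by side on chromosome 8 and were far more abundant than their ligand. TNFRSF10B (23020133 to 23069031, minus strand) had between 8761 and 12495 reads per library, and TNFRSF10A (23190452 to 23225102, minus strand) between 1512 and 2154. For TNFRSF10B the levels were 348, 346 and 341 CPM in the control and 303, 288 and 292 CPM in the libraries labelled TFAM-OE. The groups did not overlap, and the spread within each was small (SD 3.86 and 8.13 CPM). The log2 fold change was -0.23 (SE 0.085, edgeR adjusted p = 0.128), a ratio of 0.853 with a 95% interval of 0.748 to 0.974. TNFRSF10A was at 62.7, 60.7 and 58.7 CPM in the control and at 58.2, 53.8 and 50.3 CPM in the other group. Here the highest library labelled TFAM-OE came within 1 CPM of the lowest control. The log2 fold change was -0.17 (SE 0.097, edgeR adjusted p = 0.316), a ratio of 0.891 with an interval of 0.767 to 1.04. Neither receptor passed the adjusted p in any of 16 alternative analyses, in which the log2 fold changes ranged from -0.25 to -0.21 for TNFRSF10B and from -0.22 to -0.11 for TNFRSF10A.

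The decoy receptors, which lie between these genes, gave no call. TNFRSF10C, which is anchored in the membrane by a lipid and has no death domain, was at 7.001 ± 0.332 CPM in the control and at 5.62 ± 0.917 CPM in the libraries labelled TFAM-OE (SD, n = 3), with a log2 fold change of -0.31 (edgeR adjusted p = 0.247). TNFRSF10D, whose death domain is cut short, was at 44.6 ± 8.50 and 41.7 ± 0.724 CPM, with a log2 fold change of -0.095 (edgeR adjusted p = 0.702). The soluble decoy TNFRSF11B, osteoprotegerin, had 0 reads in every control library and 1, 0 and 1 reads in the others, so nothing can be said of it at this depth. Exons of TNFRSF10B share 377 bases with RHOBTB2, and those of TNFRSF10A share 266 bases with TNFRSF10A-DT, on the opposite strand in both cases. The library kit marked strand, but whether counting used it is not given in the sources used here.

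XAF1 (chromosome 17, 6755447 to 6775647, plus strand) had the largest change of the 8 genes. The control libraries held 977, 793 and 812 of its reads, against 95, 79 and 46 in those labelled TFAM-OE. The levels were 29.1, 29.6 and 22.1 CPM against 2.98, 2.17 and 1.53 CPM. The lowest control library was more than 5-fold above the highest of the other group, and control replicate 3 was the lowest control. The means were 26.9 ± 4.16 and 2.23 ± 0.725 CPM (SD, n = 3), and XAF1 fell by 3.59 on the log2 scale (SE 0.228, edgeR adjusted p = 2.43e-05). The decrease was 12.0-fold, with a 95% interval of 8.47 to 17.1. It was past the adjusted p in all 16 alternatives, with log2 fold changes of -3.84 without TFAM-OE replicate 1, -3.38 without TFAM-OE replicate 3 and -2.28 with 1 FPKM added. The antisense gene PRAL shares 2535 exon bases with XAF1 on the opposite strand and its own counts were 70, 68 and 52 in the control against 5, 7 and 4 in the others. Without knowing whether strand was used, reads of the 2 genes cannot be told apart, although PRAL's are few beside those of XAF1.

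XIAP, the target of XAF1, did not pass the test. It was at 54.0, 54.1 and 45.1 CPM in the control and at 29.97, 44.3 and 58.8 CPM in the libraries labelled TFAM-OE, with a log2 fold change of -0.20 (SE 0.205, edgeR adjusted p = 0.573). The libraries labelled TFAM-OE held both its lowest and its highest level, so its spread there was wide.

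The inflammatory caspases form a cluster on chromosome 11, in the order CASP4 (104942866 to 104969366), CASP5 (104994235 to 105023168), CASP1 (105025397 to 105035250) and CARD16 (105041326 to 105101431), all on the minus strand. CASP1, which processes interleukin-1 beta, had control counts of 98, 60 and 75 reads, against 24, 34 and 17 in those labelled TFAM-OE. Its levels were 2.92, 2.24 and 2.05 CPM against 0.752, 0.935 and 0.566 CPM. The groups were clearly apart, with more than 2-fold between the lowest control and the highest library of the other group. The means were 2.40 ± 0.457 and 0.751 ± 0.184 CPM (SD, n = 3), and CASP1 fell by 1.66 on the log2 scale (SE 0.253, edgeR adjusted p = 0.00515). This 3.16-fold decrease had a 95% interval of 2.14 to 4.67. It was past the adjusted p in all 15 alternatives that tested it, with log2 fold changes of -1.65 without TFAM-OE replicate 1 and -1.49 without TFAM-OE replicate 3. With 1 FPKM added it was -0.51.

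CASP4, which senses bacterial lipopolysaccharide in the cytosol, was more abundant and differed less. Its reads were 339, 224 and 360 in the control, against 231, 237 and 131 in those labelled TFAM-OE. The levels were 10.1, 8.36 and 9.82 CPM against 7.24, 6.52 and 4.36 CPM. TFAM-OE replicate 3 was the lowest, and the groups did not overlap. The means were 9.42 ± 0.928 and 6.04 ± 1.50 CPM (SD, n = 3), with a log2 fold change of -0.64 (SE 0.191, edgeR adjusted p = 0.0673), a 1.56-fold difference with an interval of 1.16 to 2.09. CASP4 was past the adjusted p in 3 of 16 alternatives, with no filter on low counts (0.00623), without TFAM-OE replicate 1 (0.0156) and with DESeq2 (0.0203). The fit with no filter was not used as the main one, because it made too many false calls in an earlier check on simulated data. For CASP4 the log2 fold change was -0.79 without TFAM-OE replicate 1 and -0.45 without TFAM-OE replicate 3 (edgeR adjusted p = 0.055). The neighbours CASP5 and CARD16, which resemble CASP1 in sequence, had 0, 2 and 0 and 3, 0 and 2 reads in the control and 0, 0 and 0 and 1, 0 and 1 in the others, and were too rare to test. Only uniquely mapped reads were counted, so reads that fit several of these relatives are not in the counts.

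CASP8 and CASP10, the initiator caspases of the TRAIL pathway, lie next to each other and to CFLAR on chromosome 2 (CFLAR 201116154 to 201176687, CASP10 201182872 to 201229428, CASP8 201233443 to 201361836, plus strand). CASP8 was at 53.1, 54.7 and 59.5 CPM in the control and at 59.6, 54.7 and 59.1 CPM in the libraries labelled TFAM-OE. These values overlap over nearly their whole range. The log2 fold change was 0.05 (SE 0.096, edgeR adjusted p = 0.785), and the 95% interval of the ratio, 0.892 to 1.20, leaves out a 2-fold change in either direction. CASP10 was at 12.4, 11.4 and 13.01 CPM against 10.2, 12.5 and 10.8 CPM, with TFAM-OE replicate 2 inside the control range. Its log2 fold change was -0.14 (SE 0.133, edgeR adjusted p = 0.558), with an interval of the ratio of 0.741 to 1.12. CFLAR, a caspase-like protein with no enzyme activity, was at 144 ± 3.45 and 123 ± 10.2 CPM, with a log2 fold change of -0.23 (edgeR adjusted p = 0.164). The adaptor FADD was at 131 ± 1.22 and 124 ± 16.2 CPM, with a log2 fold change of -0.079 (edgeR adjusted p = 0.692).

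Levels of different genes were compared in FPKM, which divides by transcript length. In the control, the order by mean FPKM was TNFRSF10B (71.1 ± 2.69), TNFRSF10A (19.1 ± 1.15), CASP8 (12.1 ± 0.455), XAF1 (6.36 ± 1.096), CASP4 (3.57 ± 0.399), CASP10 (1.57 ± 0.101), CASP1 (0.770 ± 0.168) and TNFSF10 (0.697 ± 0.125), each as mean ± SD of 3 libraries. In the libraries labelled TFAM-OE, CASP8 kept its place at 12.35 ± 0.909 FPKM, followed by CASP4 (2.23 ± 0.4498), CASP10 (1.40 ± 0.172), XAF1 (0.513 ± 0.140), CASP1 (0.237 ± 0.0503) and TNFSF10 (0.213 ± 0.0751). XAF1 thus stood above both CASP4 and CASP10 in the control and below both in the other group. Neighbours in each order had separate ranges over the 3 libraries, except CASP1 and TNFSF10, which overlapped in both groups.

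**Figure D3:**
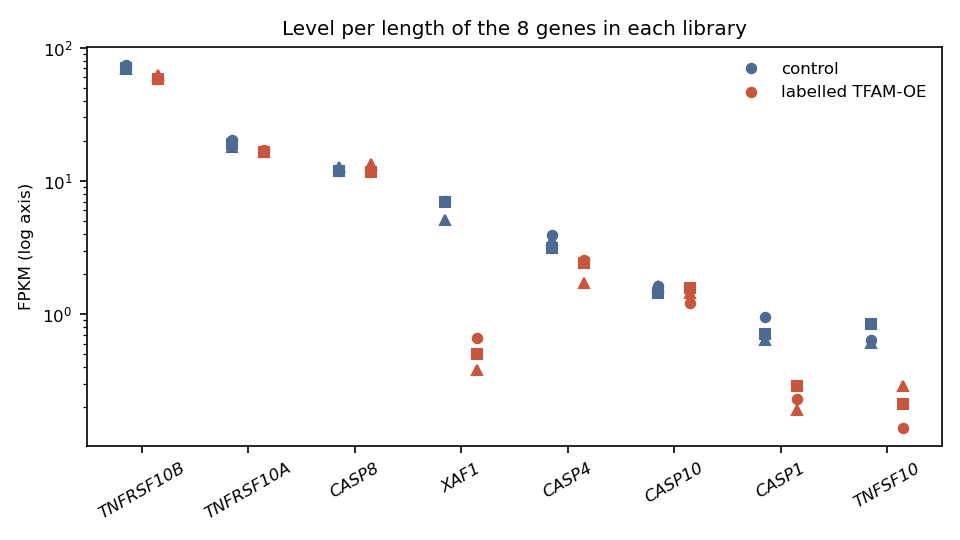
FPKM of the 8 genes on a log axis in the 3 control libraries (blue) and the 3 labelled TFAM-OE (red), ordered by the control mean, with circle, square and triangle for replicates 1, 2 and 3. XAF1 lies between CASP8 and CASP4 in the control (5.10 to 7.06 FPKM) and below CASP10 in the other group (0.38 to 0.66 FPKM), and TNFRSF10B is highest in every library.

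Ratios within a library were taken for 6 pairs of partners, from the FPKM values. TNFSF10 over the sum of its death receptors was 0.00773 ± 0.00142 in the control, against 0.00278 ± 0.000912 in the libraries labelled TFAM-OE (SD, n = 3), a log2 difference of -1.52. XAF1 over XIAP was 1.33, 1.35 and 1.21 in the control and 0.245, 0.121 and 0.0650 in the others, a log2 difference of -3.38. In FPKM, XAF1 was thus above XIAP in every control library and below it in every other library. In CPM, which does not divide by length, XAF1 was below XIAP in the control libraries too. There it was at 29.1, 29.6 and 22.1 CPM against 54.0, 54.1 and 45.1 CPM for XIAP. CASP1 over CASP4 was 0.216 ± 0.0352 and 0.107 ± 0.0160, a log2 difference of -1.01. CASP8 over its inhibitor CFLAR was 2.03 ± 0.1002 and 2.47 ± 0.225, a log2 difference of 0.28. In these 4 ratios the groups did not overlap, and the exact two-sided permutation test gave p = 0.1, the smallest it can give with 3 libraries against 3, or 0.15 after adjustment over the 6 ratios. Death over decoy receptors was 6.93 ± 0.903 and 6.46 ± 0.114 (exact p = 0.5, adjusted 0.5), and CASP8 over CASP10 was 7.74 ± 0.424 and 8.90 ± 1.32 (exact p = 0.3, adjusted 0.36). No ratio can pass 0.05 in this design.

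**Figure D4:**
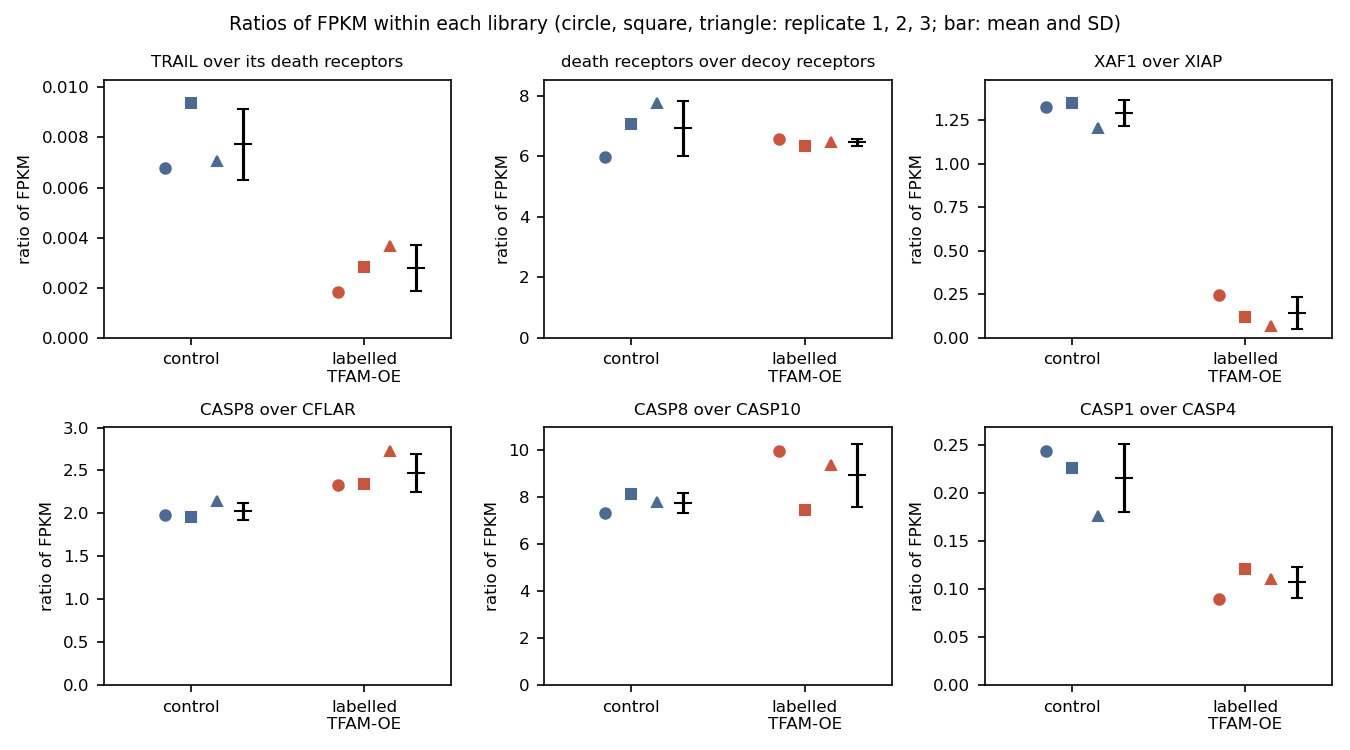
Ratios of FPKM between partner genes within each library (vertical axes from 0), control in blue and labelled TFAM-OE in red, with circle, square and triangle for replicates 1, 2 and 3 and a bar for the mean and SD. XAF1 over XIAP falls from above 1 in every control library to at most 0.245, and death over decoy receptors overlaps between the groups.

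Around these genes, 7 lists of cell death genes were counted. They hold 77 symbols beside the 8 genes, of which 71 were in the table and 59 were tested. Of the 59, 3 were called lower (IL1A, IL1B and HRK) and 0 higher, beside 2.07% and 0.447% of all genes tested. Past the adjusted p alone, 9 were lower and 2 higher, beside 4.81% and 3.48%. Their median log2 fold change was -0.099, beside -0.008 over all genes tested. Of the calls, that of IL1A was past the adjusted p in all 16 alternatives, while IL1B was not past it in 4 of 16 and HRK in 6 of 15. For both these included the fits without TFAM-OE replicate 2, control replicate 1 or control replicate 2, and for HRK also both tests of log2 FPKM.

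**Figure D5:**
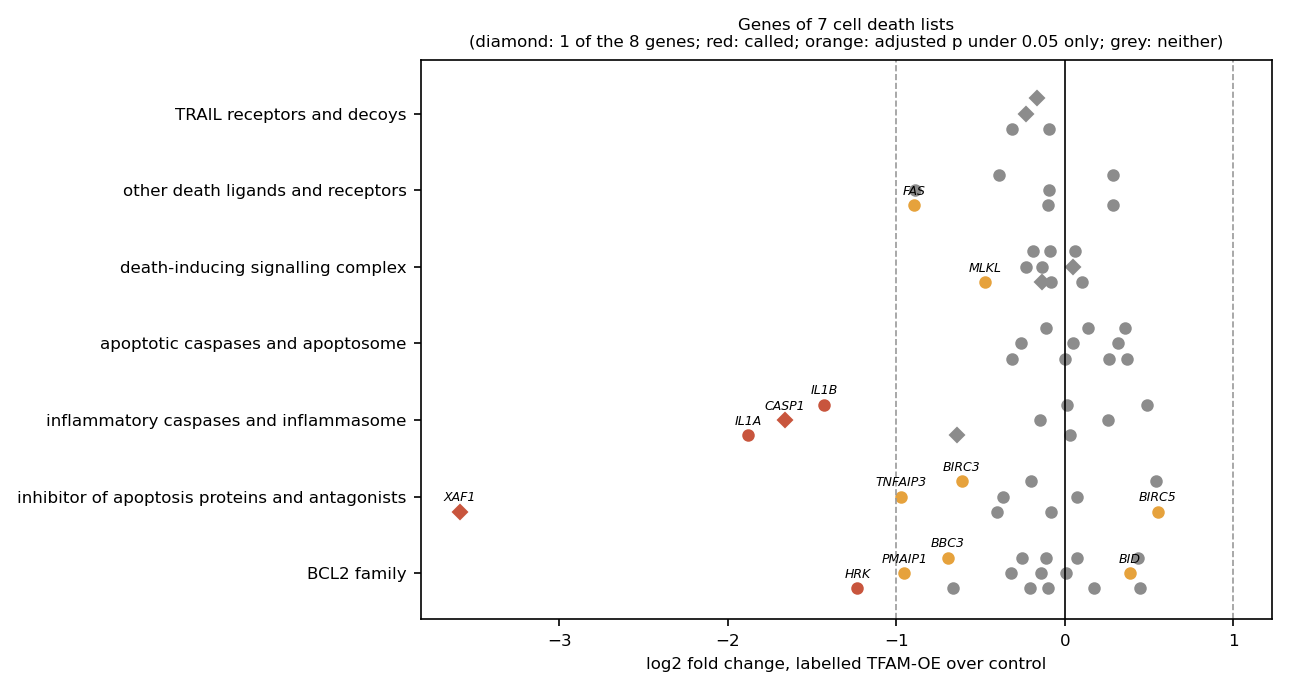
Log2 fold change, labelled TFAM-OE over control, of every tested gene of the 7 lists; diamonds are genes among the 8, red marks called genes, orange genes past the adjusted p alone, and dashed lines a 2-fold change. XAF1 at -3.59 is farthest from 0, and the called genes are found in 3 of the 7 lists.

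In the list of inflammatory caspases and inflammasome genes, 9 of 15 genes in the table were tested and 3 were called lower, CASP1 and the cytokines IL1A and IL1B. IL1A, an alarmin, fell from 6.25 ± 1.68 to 1.70 ± 0.571 CPM (log2 fold change -1.88, edgeR adjusted p = 0.00386). IL1B, the substrate of CASP1, fell from 4.10 ± 0.401 to 1.51 ± 0.757 CPM (log2 fold change -1.43, edgeR adjusted p = 0.0241). The median of the 9 was -0.15. GSDMD, the pore-forming substrate of CASP1 and CASP4, was chosen after its values were seen and was at 29.1 ± 6.16 CPM in the control and 40.9 ± 3.64 CPM in the other group (log2 fold change 0.49, edgeR adjusted p = 0.0836).

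The list of inhibitor of apoptosis proteins and their antagonists also held TNFAIP3, which is neither. In this list 10 of 12 genes were tested, XAF1 was the 1 called, and 3 were lower and 1 higher past the adjusted p. The median was -0.29. The genes beside XAF1 were chosen after their values were seen. They were TNFAIP3, a ubiquitin-editing inhibitor of NF-kappa-B signalling, at 131 ± 20.6 CPM in the control and 66.8 ± 3.54 CPM in the libraries labelled TFAM-OE (log2 fold change -0.97, edgeR adjusted p = 0.00204), and BIRC3, a ubiquitin ligase of the tumour necrosis factor receptor complex, at 158 ± 17.0 and 104 ± 15.3 CPM (-0.61, adjusted p = 0.0206). BIRC5, survivin, which also serves in cell division, was higher, at 167 ± 19.7 and 245 ± 15.98 CPM (0.55, adjusted p = 0.0165). TNFAIP3 was past the adjusted p in all 16 alternatives, while BIRC3 and BIRC5 were each not past it in 4, among them the fits without TFAM-OE replicate 2, control replicate 1 or control replicate 2.

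In the BCL2 family, 16 of 17 genes were tested, 1 was called lower, and 3 were lower and 1 higher past the adjusted p, with a median of -0.13. The called gene, HRK, a BH3-only protein, was low and fell from 1.46 ± 0.384 to 0.616 ± 0.133 CPM (log2 fold change -1.23, edgeR adjusted p = 0.0316). The others past the adjusted p were chosen after their values were seen, and all are pro-apoptotic BH3-only genes. PMAIP1 (NOXA) was at 52.8 ± 14.7 CPM in the control and 27.3 ± 1.94 CPM in the other group (-0.95, adjusted p = 0.0121), and BBC3 (PUMA) at 46.4 ± 7.01 and 28.6 ± 3.24 CPM (-0.70, adjusted p = 0.0166). BID, the protein that CASP8 cuts to link death receptors to mitochondria, was higher, at 68.2 ± 1.87 and 89.1 ± 7.48 CPM (0.39, adjusted p = 0.0404), a difference not past the adjusted p in 6 of 16 alternatives. PMAIP1 was not past it without TFAM-OE replicate 2, and BBC3 without that library, control replicate 1 or control replicate 2.

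The other 4 lists held no called gene. Of the other death ligands and receptors, 7 of 10 were tested, and 1, the death receptor FAS, was lower past the adjusted p, with a median of -0.10 over the 7. FAS fell from 25.6 ± 3.51 to 13.8 ± 0.487 CPM, a 1.86-fold decrease (log2 fold change -0.89, edgeR adjusted p = 0.00382) that was past the adjusted p in all 16 alternatives. TNFRSF1A, the main receptor of tumour necrosis factor, was at 346 ± 24.2 and 423 ± 5.30 CPM (0.29, adjusted p = 0.0856). The list named for the death-inducing signalling complex also held genes linked to it, and all 10 in the table were tested, with a median of -0.11. Of these 1 was lower past the adjusted p, MLKL, the executor of necroptosis, which is not part of the complex. It was at 37.04 ± 1.25 and 26.6 ± 0.856 CPM (-0.47, edgeR adjusted p = 0.02). MLKL was not past it in 4 of 16 alternatives, among them the fits without TFAM-OE replicate 2, control replicate 1 or control replicate 2. The apoptotic caspases and apoptosome genes, all 10 tested, had a median of 0.093 and 0 past the adjusted p in either direction. Among them the initiator CASP9 had a log2 fold change of 0.37 (edgeR adjusted p = 0.155) and PARP1, a caspase substrate, of 0.36 (adjusted p = 0.104). Of the TRAIL receptors and decoys, 4 of 5 were tested, 0 passed in either direction, and the median was -0.20.

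The genes whose profile over the 6 libraries was most like those of the 3 called genes were found by the root mean square difference of log2 CPM, each gene centred on its own mean, among 13975 genes. For TNFSF10 they were PARP14, an ADP-ribosyltransferase (0.102), DTX3L, a ubiquitin ligase (0.160), and HERC5, a ligase of the ubiquitin-like protein ISG15 (0.177), with log2 fold changes of -1.59, -1.49 and -1.76. For XAF1 they were BST2, which tethers budding virions (0.161), IFI44L (0.169) and IFITM1, a membrane protein that restricts virus entry (0.214), with log2 fold changes of -3.36, -3.66 and -3.51. For CASP1 they were the non-coding gene HCP5 (0.119), the dynein heavy chain DNAH1 (0.139) and RND3 (0.156), with log2 fold changes of -1.57, -1.42 and -1.54. With 6 libraries in 2 groups, likeness rests mostly on a group difference of the same size, and it is a description without a test.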

How the data were processed

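The transcriptome of A549 cells was sequenced in 6 libraries. The authors trimmed reads with the FASTX-Toolkit, aligned them to GRCh38 with TopHat2 and counted uniquely mapped reads per gene. They deposited these raw counts and FPKM values. The sources used here name no counting program or annotation and do not say whether strand was used.

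Counts were tested in R (4.3.3) with edgeR (4.0.16), quasi-likelihood, two-sided, after TMM scaling and filterByExpr, with Benjamini-Hochberg adjustment over 16555 genes. Standard errors and intervals come from that fit. Means and SDs refer to TMM-scaled CPM. Ratios of FPKM were compared by an exact permutation test. No reads carry molecular identifiers, and p-values measure the spread between 3 libraries per group, described as biological replicates. Alternatives were DESeq2 (1.42.0), limma (3.58.1) with voom or on log2 FPKM with 0.1 or 1 added, RLE, upper-quartile or library-size scaling, no filter, FPKM above 1, replicate numbers as a block and each library left out. Coordinates are from GENCODE version 44. Promoter windows of chromosome 8 genes were not used.

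Members and lists were chosen with earlier results of these data known. The genes named are the 8, 10 fixed partners, every called list gene or otherwise the 2 of smallest p per list, and the 3 nearest profiles; a few of them are not reported here. The tests were tested on simulated data.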

Additional observations from a re-analysis of the deposited data

How the results depend on the processing

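None of the 8 fold changes changed direction in the alternatives that tested them (15 for TNFSF10 and CASP1, 16 for the others). Nor did the group differences of the 6 ratios, in 7 alternatives each. Alternatives were not tabulated for the list medians. The 342 genes called lower and 74 called higher became 528 and 129 with no filter on low counts, 108 and 11 with 1 FPKM added, and 217 and 38 with the replicate block. The higher count was 43 among genes with FPKM above 1 and 44 with 0.1 FPKM added. Leaving out each library gave 183 to 448 lower and 21 to 113 higher, and the libraries that moved a count by over 1.5 times were control replicate 1 (183 and 21), control replicate 2 (184 and 28), TFAM-OE replicate 2 (205 and 41) and TFAM-OE replicate 3 (113 higher). Of the 8 genes, 3 were called lower, and 1 with 1 FPKM added or among genes with FPKM above 1, a fit that left out TNFSF10 and CASP1, so that 1 also passed the adjusted p there. Leaving out each library gave 2 to 3 called and 2 to 4 past the adjusted p.

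Of the list genes beside the 8, 9 lower and 2 higher past the adjusted p, with 3 called, became 5, 0 and 1 with the replicate block. The higher count was 6 with no filter and 5 with DESeq2, and 1 gene was called with 1 FPKM added. Leaving out each library gave 3 to 14 lower, 0 to 7 higher and 1 to 5 called. The labels give the replicates only as numbers. The deviations of same-numbered libraries from their group means correlated at -0.22, 0.0077 and -0.27, and those of differently numbered libraries at -0.039 to 0.25. With 3 libraries per group, these values cannot show whether libraries were handled in pairs. The block kept XAF1, TNFSF10 and CASP1 past the adjusted p, and IL1B, HRK, MLKL, BIRC3, BIRC5 and BID were not past it under the block. Why these counts moved was not tested. Some fits held fewer genes or libraries, while the fit with no filter tested 29845 genes against 16555 in the main fit. The unfiltered fit had also made too many false calls in an earlier check on simulated data. The median log2 fold change of all genes stayed between -0.036 and -0.001. Depth limits TNFSF10, with 11 to 19 reads per library labelled TFAM-OE, and the untested TNFRSF11B, CASP5 and CARD16.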
